A study of Mus musculus with 16 samples.

Results

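The 7 genes of the mouse embryonic kidney described here, Cap1, Tmem267, Trim5, Zfp945, Ifi202b, Cox15 and Rpgrip1, were chosen by their array signals because they differed widely and tightly between Hoxa11/Hoxd11 double null and wild-type mesenchyme. They are 7 of the 18193 genes named through a probe set with a single gene symbol, and 16 of the 45037 probe sets of the array carry one of them as their only symbol. They were selected on the signals of the null and wild-type laser captures, so every difference between those groups is given below as a description, with no test. The genes were proposed as all-or-none shifts of the kind that sequence differences between inbred strains produce. On an expression array such a shift can come from a transcript that is present in one strain and absent in another, or from a variant under the probe that weakens hybridization while the transcript itself is made. Probe sets that lie elsewhere in the same gene, and the genes beside it on the chromosome, are then the natural points of comparison. Strains, and the genotype at these 7 loci, are not stated in the sources used here.

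The kidney was sampled at E11.5. At that stage the bud of the ureter (UB), the future collecting duct system, has grown into the metanephric mesenchyme (MM), the source of nephrons and stroma. The first 5 arrays held MM of Hoxa11/Hoxd11 double null embryos, which lack a pair of paralogous homeobox factors needed for kidney outgrowth; it was laser-captured from 7 µm frozen sections of urogenital ridges. A further 4 held wild-type MM, laser-captured from 7 µm sections of kidney rudiments with 3 to 4 mesenchymes pooled. Another 3 arrays, replicates 5 to 7, held wild-type MM of individual rudiments separated by hand after collagenase, and 4 held wild-type UB separated in the same way with 3 to 9 buds pooled. Genotype, source piece and pooling cannot be told apart between the null and wild-type captures. The 11 wild-type arrays serve together as a wider reference, although only the 4 captures share the null arrays' method.

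Signals are the deposited MAS5 intensities, each array scaled to the same trimmed mean, and differences are on the log2(signal + 36.3) scale, which understates the change of dim probe sets. Array medians ran from 112.7 to 209.2 in the null captures, 162.7 to 182.3 in the wild-type captures, 140 to 151 in hand-dissected MM and 126.8 to 132.9 in UB, and a signal below these lies in the dim part of an array. Null replicate 1 stood apart: its median correlation with the other null arrays was 0.84, against 0.90 for each of those 4 arrays and 0.94 to 0.98 within the other groups. By a smaller margin, hand-dissected MM replicate 5 (0.962, against 0.970 and 0.971) and UB replicate 1 (0.962, against 0.973 to 0.980) were lowest in their groups. Of the targeted genes, Hoxa11 was lower, as labelled, at 124 ± 44.5 in the null captures and 709 ± 147 in the wild-type captures (SD, n = 5 and 4; adjusted p = 0.0114, limma). Hoxd11 did not pass, at 341 ± 121 in the null captures and 435 ± 115 in the wild-type captures (difference -0.35, adjusted p = 0.635), and whether its probe set lies in the deleted part is not stated in the labels. The null captures held less macrophage signal (summed over 12 marker genes, 2120 to 18591, against 13273 to 26625 in the wild-type captures), less of all 12 endothelial markers by mean, and more of all 9 neuronal markers by mean. The summed signal of gonad and coelomic markers was 29784 in null replicate 5, against 574 to 2861 in the other null captures and 804 to 1473 in the wild-type captures. In limma, 411 of 23387 probe sets passed an adjusted p of 0.05 between null and wild-type captures, a share of 1.76% (0.59% higher and 1.17% lower in the null captures). By gene, with each counted through its brightest probe set, 212 of 12161 passed, 1.74% (0.748% higher and 0.995% lower).

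The filter on dim probe sets kept 9 of the 16 member probe sets for the fit of null and wild-type captures, and the others are given by their values alone. Of the 16 member probe sets, 10 had the 5 null arrays entirely outside the range of the 4 wild-type captures, and 6 had them outside the range of all 11 wild-type arrays. Over all 23387 probe sets tested, the first share was 8.82% (2.68% higher and 6.14% lower in the null captures). The second was 2.7% (0.945% higher and 1.75% lower). The choice of the genes fixes the first count. It also favours the second, which uses the same null arrays and captures, so nothing is read from either. The 16 member probe sets also include those that the filter removed, unlike the 23387. By gene, all 7 were apart from the captures in their strongest probe set. Only Cap1, Tmem267, Cox15 and Rpgrip1 were apart from all 11 wild-type arrays as well. Of these, Cox15 was above the array median in 5 of the 5 null arrays and 0 of the 11 wild-type arrays. In Cap1, Tmem267 and Rpgrip1 the name all-or-none goes beyond the values. Rpgrip1 was bright on both sides, with 469.4 to 2726.7 over the wild-type arrays, and Cap1 and Tmem267 were above the array median in 3 of the 5 null arrays each. In Trim5, Zfp945 and Ifi202b some wild-type array lay within the null range. In the null captures 5 genes were lower and 2 were higher, and each lies on a chromosome of its own (4, 13, 7, 17, 1, 19 and 14 in the order named at the start). None lies on chromosome 6 or 2, which carry Hoxa11 and Hoxd11.

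**Figure D1:**
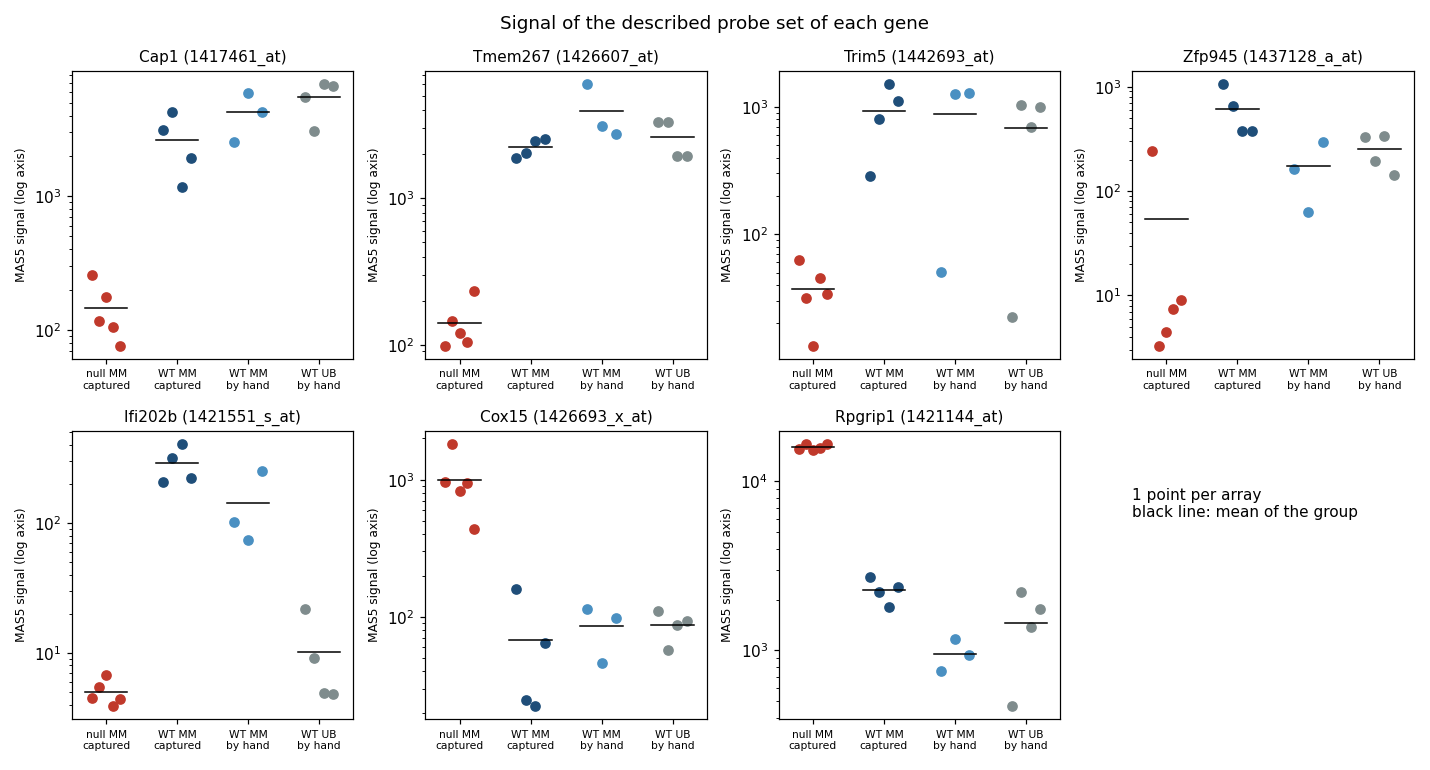
Deposited MAS5 signal (log axis) of the strongest probe set of each gene, 1 point per array, in null captures, wild-type captures, hand-dissected wild-type MM and wild-type UB; the black line is the group mean. The null arrays lie apart from all 11 wild-type arrays in Cap1, Tmem267, Cox15 and Rpgrip1, while 2 wild-type arrays lie at the null level in Trim5 and 2 UB arrays do so in Ifi202b.

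Promoter windows of the genes, from 250 bases before to 50 bases after the annotated start, were taken from RefSeq on GRCm38.p6 and are shown for the 4 genes in which a searched motif was present. The windows of that table are those of the reference strain, C57BL/6J, and no sequence of the sampled embryos was used. The motifs searched, on both strands, were TATAAA, the TATA box core, CCAAT, the core bound by NF-Y, and the core of the interferon-stimulated response element, GAAANNGAAA. TATAAA occurred in 13.6%, CCAAT in 37.4% and the response element core in 3.44% of the 32851 windows of the table. Capitals mark the matches, on either strand.
Ifi202b, chr1:173982795-173983094, minus strand: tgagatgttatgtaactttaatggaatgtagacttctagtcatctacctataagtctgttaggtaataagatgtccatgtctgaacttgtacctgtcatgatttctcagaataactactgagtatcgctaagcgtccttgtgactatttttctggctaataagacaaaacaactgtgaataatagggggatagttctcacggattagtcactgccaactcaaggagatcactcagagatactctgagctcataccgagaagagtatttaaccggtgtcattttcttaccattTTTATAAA
Cap1, chr4:122886027-122886326, minus strand: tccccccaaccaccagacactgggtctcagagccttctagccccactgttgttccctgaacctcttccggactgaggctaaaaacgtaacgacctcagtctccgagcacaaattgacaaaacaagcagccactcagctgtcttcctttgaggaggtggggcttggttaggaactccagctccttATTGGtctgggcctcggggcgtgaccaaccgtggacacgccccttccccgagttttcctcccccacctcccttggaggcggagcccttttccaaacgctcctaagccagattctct
Trim5, chr7:104288057-104288356, minus strand: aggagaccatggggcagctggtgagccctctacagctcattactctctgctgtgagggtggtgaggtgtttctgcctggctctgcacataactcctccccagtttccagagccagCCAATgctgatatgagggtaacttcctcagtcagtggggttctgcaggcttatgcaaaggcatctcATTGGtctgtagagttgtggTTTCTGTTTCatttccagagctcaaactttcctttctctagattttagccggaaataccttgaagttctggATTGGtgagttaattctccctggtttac
Rpgrip1, chr14:52110653-52110952, plus strand: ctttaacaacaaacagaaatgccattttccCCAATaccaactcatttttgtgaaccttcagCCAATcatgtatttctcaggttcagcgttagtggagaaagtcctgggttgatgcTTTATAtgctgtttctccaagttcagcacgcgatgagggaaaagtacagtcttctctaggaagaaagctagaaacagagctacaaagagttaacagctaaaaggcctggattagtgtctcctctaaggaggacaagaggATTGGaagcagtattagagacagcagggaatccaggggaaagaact
Ifi202b held 2 overlapping TATAAA matches, on opposite strands, whose first bases are 43 and 45 counted from 1 at the start. Trim5 held 3 CCAAT matches and 1 response element core 49 bases before the start, and no other of the 7 genes held that core. Rpgrip1 held 1 TATAAA and 3 CCAAT matches, and Cap1 held 1 CCAAT match. The windows of Tmem267, Zfp945 and Cox15 held none of the 3 motifs. The CpG count separated the genes more clearly: 42 in Cox15 and 22 and 50 in the 2 windows of Tmem267, against 11 in Cap1, 7 in Zfp945, 5 in Ifi202b, 3 in Rpgrip1 and 1 in Trim5, where the median window held 7.

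Cap1, adenylate cyclase-associated protein 1, recycles actin monomers and works with cofilin in the turnover of filaments. The probe set 1417461_at read 257.0, 116.6, 176.4, 106.0 and 76.3 in the null captures, against 3110.7, 4268.0, 1168.4 and 1935.3 in the wild-type captures. Hand-dissected MM read 2519.2, 5894.0 and 4263.7, and UB read 5538.7, 3087.3, 6908.2 and 6639.4. The null arrays thus lay below every wild-type array, by 2.04 on the log2 scale between the nearest pair, and the difference from the wild-type captures was -3.79 (SE 0.43). The second probe set, 1417462_at, was designed on the same RefSeq transcript and was far dimmer. It read 75.5, 22.2, 115.8, 6.0 and 3.6 in the null captures, against 127.0, 300.2, 170.4 and 186.0 in the wild-type captures. It moved the same way, by -1.68, without overlap with the captures, although 1 hand-dissected MM array, at 91.0, lay within the null range. Both Cap1 probe sets were therefore lower in the null captures. The size of the second difference is limited from below, since 0 of the 5 null arrays read it above the array median and the offset sets a floor, so the 2 sizes are not compared.

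Of 18 other tested genes of actin filament turnover, 0 passed the limma threshold in either direction between null and wild-type captures (1 at an unadjusted p under 0.05), with a median difference of -0.11 beside -0.10 over all genes, where 1.74% passed. The neighbours of Cap1, 4 of them kept by the filter, ran from -0.61 to 0.59, and 0 passed.

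Tmem267 encodes a predicted transmembrane protein whose function is not established. It has a single probe set, 1426607_at. The null captures read 98.4, 144.6, 119.8, 103.6 and 231.8, against 1900.0, 2035.4, 2456.3 and 2535.0 in the wild-type captures. Hand-dissected MM read 6054.9, 3109.5 and 2751.9, and UB read 3301.8, 3346.0, 1938.1 and 1941.3. No wild-type array came near the null level, and the gap of 2.85 was the third largest among the 23387 probe sets tested. The difference from the wild-type captures was -3.73 (SE 0.31). The log2 SD was 0.40 in the null captures, 0.20 in the wild-type captures, 0.61 in hand-dissected MM and 0.44 in UB.

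Tmem267 was the member with the most neighbours that passed. The gene next to it, 4833420G17Rik, fell in the null captures: its brightest probe set, 1419637_s_at, read 7689.2, 3830.2, 2703.4, 3158.3 and 5048.3 in the null captures, against 21193.1, 18722.9, 14362.9 and 20059.0 in the wild-type captures (difference -2.13, adjusted p = 0.00584, limma). Its probe sets 1419635_at and 1419636_at differed by -2.24 and -2.29, while its remaining 2, both dim, differed little. Zfp131, a zinc finger gene, fell by 0.90 (adjusted p = 0.0477). These neighbours were thus lower by less than Tmem267 itself.

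Paip1, which binds the poly(A)-binding protein and lies on the far side of 4833420G17Rik, had probe sets that moved in opposite directions. The probe set 1425521_at read 1123.7, 550.1, 569.0, 290.7 and 225.0 in the null captures, against 1.3, 13, 0.5 and 1.7 in the wild-type captures, a difference of 3.67. The probe set 1441955_s_at read 181.9 to 568.2 in the null captures, against 5.9 to 24.9 in the wild-type captures, a difference of 2.51. The probe set 1456852_at went the other way, with 266.7, 23.4, 137.2, 92.1 and 25 in the null captures, against 577.9, 393.2, 564.7 and 458.2 in the wild-type captures, a difference of -2.14. The brightest Paip1 probe set, 1451740_at, read 5565 to 10443 in the null captures and 3148 to 5546 in the wild-type captures, and differed by 0.65 (adjusted p = 0.174). All 4 Paip1 probe sets thus had null arrays outside the range of the wild-type captures, 3 of them higher and 1 lower in the null captures.

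Nnt, named here after its values were seen because part of the gene is known to be deleted in C57BL/6J mice, lies near Tmem267 too. Its brightest probe set read 8145 to 17705 in the null captures, against 7644 to 11075 in the wild-type captures (difference 0.33, adjusted p = 0.506). No Nnt probe set differed by more than 0.34 in size. The probe set 1432608_at was dim, at 15.5 to 54.4 in the null captures, and the filter did not keep it. Whether any of these probe sets lies in the deleted part was not examined, so nothing about strain is read from them.

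**Figure D2:**
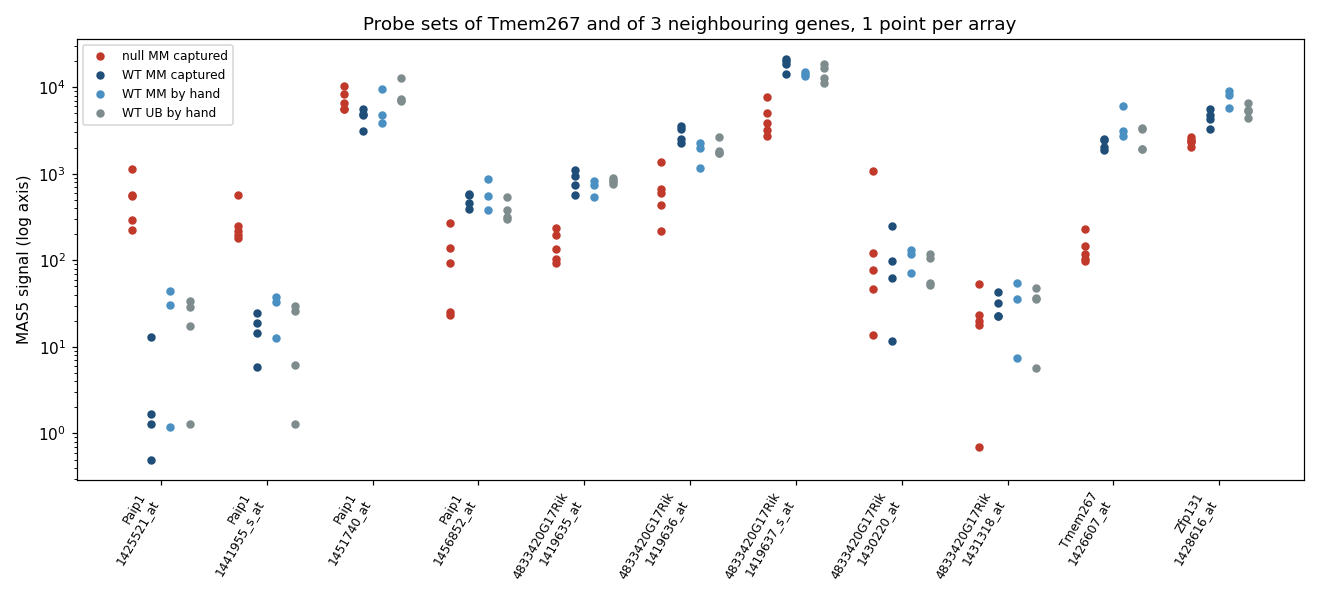
Deposited MAS5 signal (log axis) of each probe set of Paip1, 4833420G17Rik, Tmem267 and Zfp131, 1 point per array, coloured by group. In Paip1, 2 probe sets are bright only in the null captures and another is dim there, 3 of the 5 probe sets of 4833420G17Rik are lower there, and Tmem267 is lower than in all 11 wild-type arrays.

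Trim5 belongs to the tripartite motif family of ubiquitin ligases, and primate TRIM5 is known for binding the capsids of incoming retroviruses. The group has expanded into a cluster of related genes in the mouse. The only probe set, 1442693_at, read 62.2, 31.6, 13.3, 45.1 and 33.8 in the null captures, against 288.4, 800.2, 1518.0 and 1122.7 in the wild-type captures. Hand-dissected MM read 50.2, 1273.3 and 1296.1, and UB read 22.2, 1028.8, 689.4 and 996.7. The difference from the wild-type captures was -3.54 (SE 0.48). Hand-dissected MM replicate 5 and UB replicate 1 lay within the null range, and the other 9 wild-type arrays lay above it. Wild-type samples therefore held both levels.

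The same arrays held the null level in 1 of the 2 Trim34a probe sets and in Trim68, also on chromosome 7. Trim34a, the gene between Trim6 and Trim5, has 2 probe sets, neither of which the filter kept. The probe set 1424857_a_at read 16.8, 26.4, 10.5, 13.4 and 5.7 in the null captures, against 162.2, 199.6, 202.0 and 249.0 in the wild-type captures. Hand-dissected MM read 9.3, 259.9 and 245.1 there, and UB read 20.9, 182.2, 160.3 and 159.2, so that replicates 5 and 1 were again the low ones. Trim68 ran in the opposite direction. It read 2666.4, 2537.2, 2462.8, 2071.5 and 2433.5 in the null captures, against 170.7, 205.9, 746.7 and 849.3 in the wild-type captures. Hand-dissected MM read 2617.7, 434.1 and 1079.8, and UB read 2123.5, 645.7, 663.1 and 56.6, so that the same replicates 5 and 1 lay within the null range while the other 9 wild-type arrays lay below it. Trim68 rose in the null captures by 2.51 (adjusted p = 0.0215, limma). The Trim34a probe set 1424857_a_at differed by -2.24, with no test. The other, 1426093_at, read 11.7 to 58.9 in the null captures and 46.7 to 85.8 in the wild-type captures. Hand-dissected MM replicate 5 read 83.2 there, above the null range. UB replicate 1 read 57, within that range, where UB replicate 4 (40.1) and wild-type capture replicate 4 (46.7) also lay.

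Trim6, which lies between Trim34a and the olfactory receptor genes beside the cluster, behaved otherwise. It read 139.2, 69.7, 84.4, 138.6 and 173.0 in the null captures, against 524.3, 631.2, 876.3 and 557.4 in the wild-type captures (difference -2.14, adjusted p = 0.0167, limma). In hand-dissected MM replicate 5, Trim6 read 298.7, the lowest of the wild-type arrays but above the null range, and in UB replicate 1 it read 1895.0, the highest of all. The Trim5 group thus had 1 gene higher and 1 lower among 4 tested besides Trim5, and its other measured genes, Trim12a, Trim12c, Trim21, Trim30a and Trim30d, did not pass the test or the filter.

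**Figure D3:**
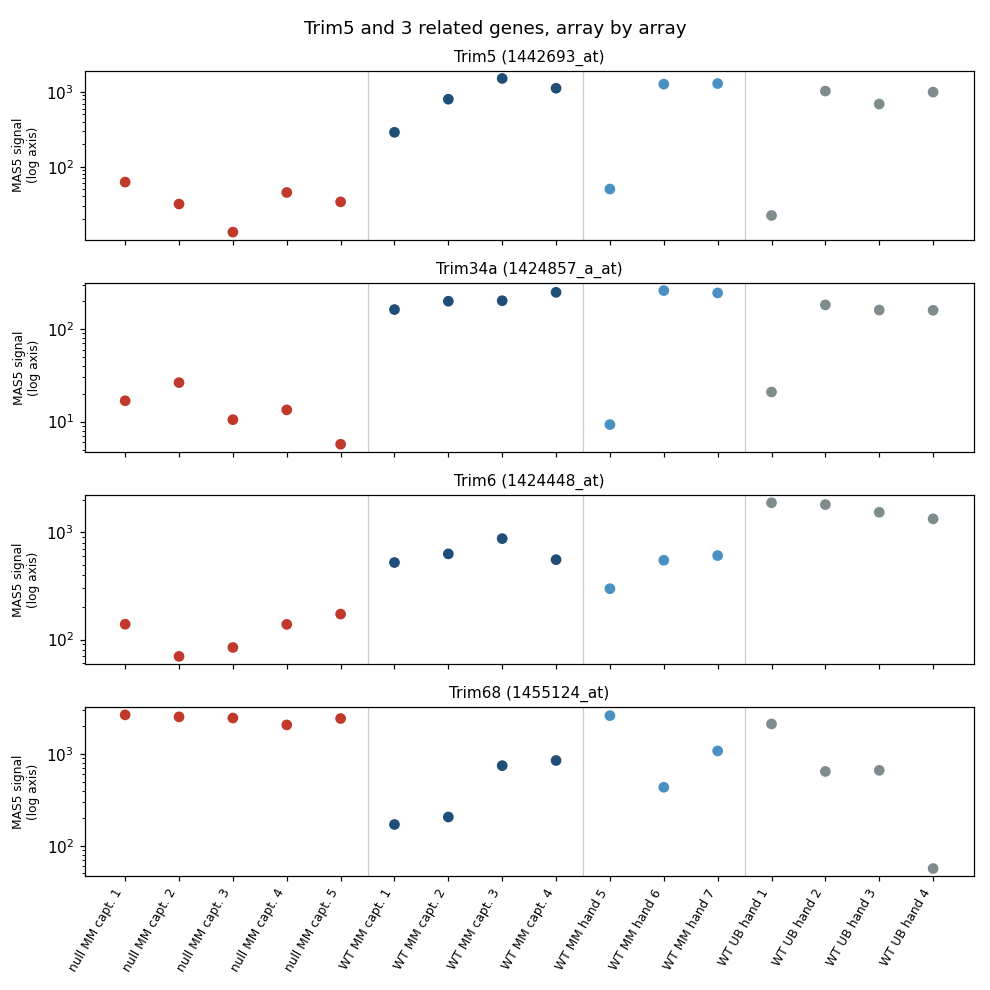
Deposited MAS5 signal (log axis) of Trim5, Trim34a, Trim6 and Trim68 in each of the 16 arrays, ordered by group with vertical lines between groups. Hand-dissected wild-type MM replicate 5 and wild-type UB replicate 1 lie at the level of the null captures in Trim5, Trim34a (1424857_a_at) and Trim68. Both lie above it in Trim6.

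Ifi202b encodes an interferon-inducible protein of the p200 family that binds DNA in the cytoplasm and restrains the Aim2 inflammasome; its transcript level is known to differ widely between inbred mouse strains. The probe set 1421551_s_at read 4.5, 5.5, 6.8, 3.9 and 4.4 in the null captures, against 206.2, 317.6, 404.2 and 223.2 in the wild-type captures. Hand-dissected MM read 101.5, 74.3 and 249.2, and UB read 21.6, 9.2, 4.9 and 4.8. All wild-type mesenchyme thus lay above the null captures, while 2 UB arrays lay within the null range and 2 just above it. The difference from the wild-type captures was -2.93 (SE 0.37), of which the offset sets the size, since the null signals lie far below 36.3. The suffix _s_at marks a probe set that can match transcripts of several genes, so signal from a related gene cannot be told apart from that of Ifi202b.

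Ifi202b is expressed in immune cells. The summed macrophage signal was 2120 to 18591 in the null captures, 13273 to 26625 in the wild-type captures, 5487 to 15358 in hand-dissected MM and 1163 to 1734 in UB. The lowest mean of the 12 markers in the null captures was 17.4. In null replicate 1 the macrophage sum was 18591, within the wild-type range, and Ifi202b read 4.5 there. Endothelial markers were also lower in the null captures by mean, in 12 of 12, with sums of 10304 to 24923 in the null captures, 15184 to 42883 in the wild-type captures, 19117 to 26947 in hand-dissected MM and 3378 to 6782 in UB. The part of macrophage or endothelial cells in the result was not tested. In bulk samples, fewer cells of a type and less RNA per cell cannot be told apart. Of 27 measured interferon-stimulated genes, 22 were lower in the null captures by mean, with a median difference of -0.91 over the 11 tested beside -0.10 over all genes, and 0 passed the limma threshold (4 at an unadjusted p under 0.05). The other p200 genes were dim. Ifi203, the single one tested, read 121 ± 80.1 in the null captures and 204 ± 50.6 in the wild-type captures (SD, n = 5 and 4), a difference of -0.72 (adjusted p = 0.396).

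Zfp945 is a predicted KRAB zinc finger gene, one of the rapidly diversifying family of DNA-binding repressors of transposable elements. It has 3 probe sets, and 1 of them moved. The probe set 1437128_a_at read 243.4, 3.3, 4.5, 7.4 and 9.1 in the null captures, against 1063.5, 653.7, 373.2 and 377.4 in the wild-type captures. Hand-dissected MM read 163.5, 62.4 and 295.6, and UB read 332.5, 194.8, 337.4 and 143.5. Null replicate 1 alone lay among the wild-type arrays; the other 4 null arrays read below 10 and lay under all 11. The difference from the wild-type captures was -3.28 (SE 0.63), and -3.82 without null replicate 1.

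The probe set 1437127_at was designed on the same expressed sequence tag. It read 697.2, 106.5, 105.2, 32.2 and 73.4 in the null captures, against 139.1, 134.3, 137.1 and 133.5 in the wild-type captures, a difference of -0.09. The third, 1441792_at, read 118.7 to 332.2 in the null captures, against 103.7 to 227.9 in the wild-type captures, a difference of 0.02 (SE 0.39). Neither was apart from the captures, so the Zfp945 difference rested on a single probe set of 3. Of 19 tested KRAB zinc finger genes with similar numbers, 0 passed as higher and 2 as lower, Zfp943 by -1.85 (adjusted p = 0.0309) and Zfp799 by -1.38 (adjusted p = 0.0305). Zfp946, a neighbour of Zfp945, read 943.7 to 1933.1 in the null captures, against 2043.0 to 3316.2 in the wild-type captures, and did not pass (difference -1.08, adjusted p = 0.0761).

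Cox15 converts heme O to heme A, the cofactor of cytochrome c oxidase in mitochondria. Its strongest probe set, 1426693_x_at, read 963.8, 1816.4, 833.4, 948.7 and 440.3 in the null captures, against 159.2, 24.8, 22.4 and 64.1 in the wild-type captures. Hand-dissected MM read 114.2, 46.0 and 98.8, and UB read 110.2, 57.6, 86.8 and 92.5. The null arrays lay above all 11 wild-type arrays, by 1.29 between the nearest pair, and the difference from the wild-type captures was 3.37 (SE 0.48). The wild-type level was dim: 0 of the 11 wild-type arrays read above their own median.

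Of the 4 Cox15 probe sets, 3 were apart from all 11 wild-type arrays. The probe set 1452146_a_at, designed on the same cDNA clone as the first, read 322.4, 592.3, 185.1, 273.2 and 141.1 in the null captures, against 60.4, 3.4, 43.0 and 2.3 in the wild-type captures, a difference of 2.39 (SE 0.49). The probe set 1437982_x_at read 43.4 to 159.1 in the null captures, against 18.7 to 40.0 in the wild-type captures, a difference of 0.87, and its margin over the nearest wild-type array was 0.06. The fourth, 1460376_a_at, designed on another cDNA clone, read 103.4, 48.3, 54.4, 73.4 and 237.7 in the null captures, against 62.7, 200.4, 75.9 and 19.0 in the wild-type captures. It overlapped throughout, with a difference of 0.20. The suffix _x_at marks probe sets that can share sequence with other genes, so in these signal from a related sequence cannot be told apart from that of Cox15. The suffix _a_at marks probe sets that can match several transcripts of the same gene, so which transcript gave the signal cannot be told. Neuronal markers were also higher in some null captures than in the wild-type captures: their summed signal over 9 genes was 41186, 13976, 9432, 51358 and 4643 in the null captures, against 4202 to 8118 in the wild-type captures, and their part in the result was not tested. Null replicate 5, with a neuronal sum within the wild-type range, had the lowest null level of Cox15, which was still above every wild-type array. Of 16 tested genes of heme A synthesis and cytochrome oxidase assembly, 0 passed in either direction (5 at an unadjusted p under 0.05). The 7 neighbours kept ran from -0.69 to 0.20 and 0 passed.

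Rpgrip1 anchors the RPGR complex at the connecting cilium of photoreceptors. The probe set 1421144_at read 15510.4, 16616.7, 15391.6, 15699.5 and 16630.0 in the null captures, against 2726.7, 2230.7, 1795.5 and 2378.1 in the wild-type captures. Hand-dissected MM read 755.0, 1165.0 and 942.5, and UB read 469.4, 2215.3, 1368.6 and 1747.3. Hand-dissected MM replicate 5 and UB replicate 1 were the lowest of their groups, farthest from the null level. The null arrays lay above every wild-type array by 2.48, and the difference from the wild-type captures was 2.80 (SE 0.16). This was the smallest SE of the members, and the 5 null arrays had a log2 SD of 0.05, null replicate 1 included.

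The other 3 Rpgrip1 probe sets were dim in every group. The probe set 1431357_a_at read 21.7 to 139.6 in the null captures, against 13.3 to 59.3 in the wild-type captures. The probe set 1451785_at read 15.3 to 55.2 in the null captures, against 4.3 to 18 in the wild-type captures, and 1454231_a_at read 2.7 to 186.1 in the null captures, against 7.5 to 126.4 in the wild-type captures. All 3 overlapped, with differences of 0.05, 0.60 and 0.12. The high null level thus appeared in 1 probe set of 4. Of 16 tested ciliary transition zone and photoreceptor genes, 1 passed, Tctn1, which fell by 2.27 (adjusted p = 0.0265). The 8 neighbours, all kept, ran from -1.06 to 0.55 and 0 passed. The one at the low end, Supt16, a subunit of the histone chaperone FACT, read 7771.1 to 19729.8 in the null captures, against 26216.2 to 29005.2 in the wild-type captures (adjusted p = 0.0738, limma), and its null arrays lay below all 11 wild-type arrays. Its other probe set, 1449578_at, which the filter did not keep, read 12, 51.7, 8.1, 16.7 and 6.0 in the null captures, against 242.3, 522.9, 111.6 and 107.5 in the wild-type captures, a difference of -2.18. Hand-dissected MM read 9.2, 282.6 and 278.7 there, and UB read 12.6, 110, 240.8 and 222.6. The arrays of wild-type origin within the null range were thus hand-dissected MM replicate 5 and UB replicate 1. The same held in Trim5, Trim34a (1424857_a_at) and Trim68 on chromosome 7. In Rpgrip1 (1421144_at) the same 2 arrays lay farthest from the null level in their groups. Elsewhere they departed from their groups together, away from the null level. In Hmgcs1 (1433446_at) they read 4344.9 and 4446.4, the highest of their groups, against 554.2 to 1150.7 in the null captures. In Slc25a28 they read 1485.2 and 2033.2, the lowest of theirs, against 3874.9 to 6911.8 in the null captures. How often this happened over all probe sets was not counted.

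**Figure D4:**
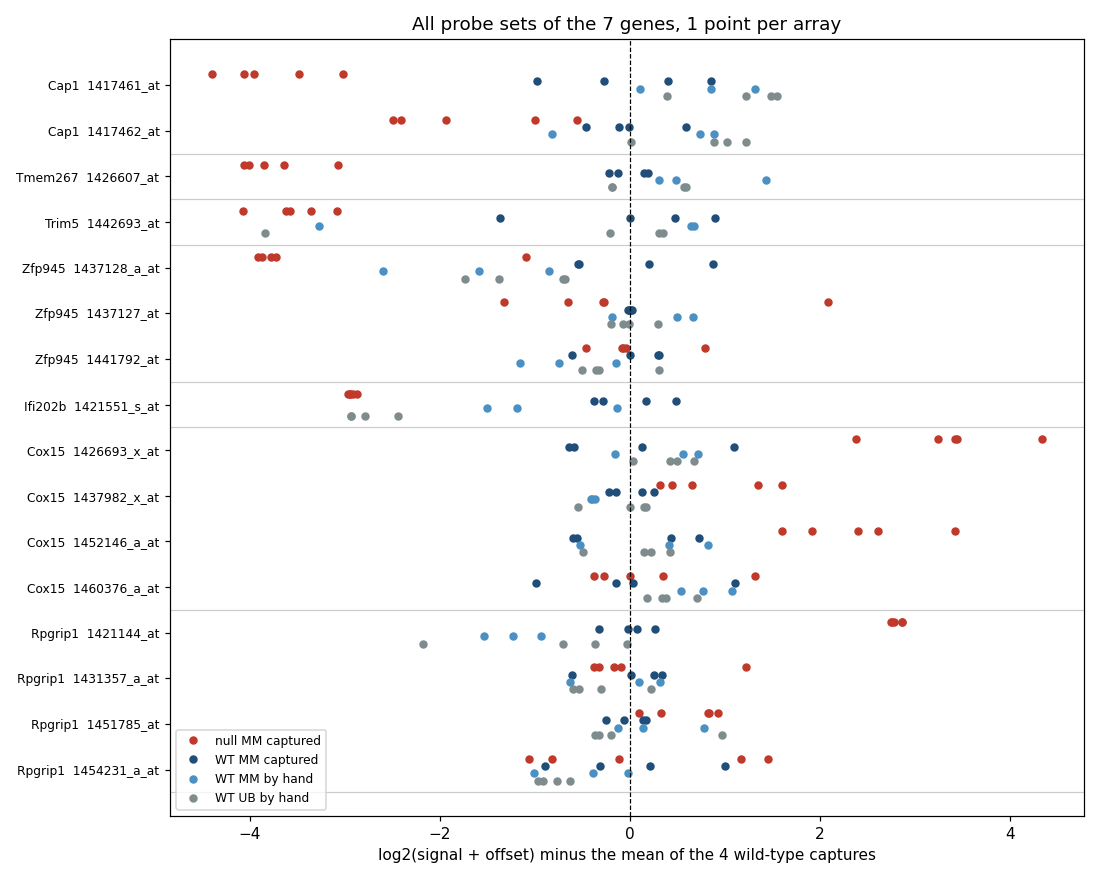
All 16 probe sets of the 7 genes, 1 point per array, as log2(signal + 36.3) minus the mean of the 4 wild-type captures, coloured by group. Both Cap1 probe sets and 3 of the 4 Cox15 probe sets shift together in the null captures, whereas 1 of 3 Zfp945 and 1 of 4 Rpgrip1 probe sets does.

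Set side by side, the members fell into 3 kinds by their probe sets. In Cap1 and Cox15 most probe sets moved in the same direction, with 2 of 2 and 3 of 4 apart from the captures. Both Cap1 probe sets share a design entry, as do 2 of these 3 in Cox15, and the margin of the other was 0.06. In Zfp945 and Rpgrip1 1 of 3 and 1 of 4 did, and the remaining ones were dim or level. Those of Rpgrip1 were dim in every group, so they show neither agreement nor disagreement. Tmem267, Trim5 and Ifi202b each had 1 usable probe set, which allows no such comparison. The probe positions were not used here, so whether a variant lies under a probe was not tested for any gene.

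Of the 45 measured genes among the 70 nearest protein-coding neighbours, 33 were kept by the filter. Of these, 3 passed the limma threshold, 4833420G17Rik and Zfp131 beside Tmem267 and Trim6 beside Trim5, beside 1.74% of all genes tested. In 7 of the 33 the null arrays lay outside the range of the wild-type captures (8.82% over all probe sets), 3 of them beside Tmem267. Around Cox15 and Ifi202b, 0 of the 7 and 0 of the 1 kept neighbours did.

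**Figure D5:**
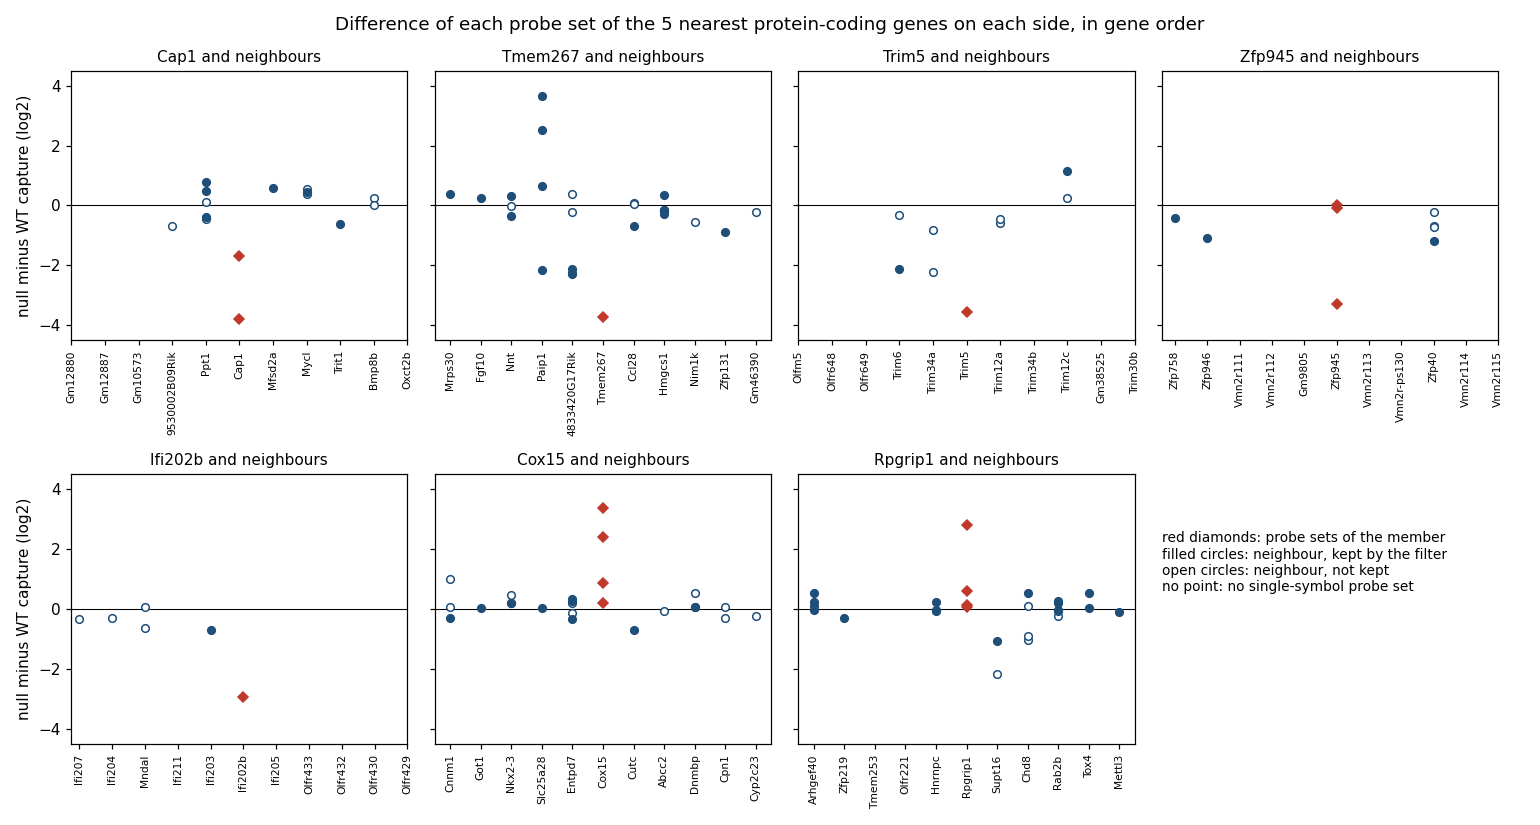
Null minus wild-type capture difference (log2) of each probe set of the 7 genes (red diamonds) and of the 5 nearest protein-coding genes on each side in gene order (circles, filled where the filter kept the probe set). Differences of more than 1 in size beside a member occur at Tmem267, at Trim5, at Zfp945 (Zfp40 and Zfp946) and at Rpgrip1 (Supt16 and Chd8). The kept probe sets of the Cox15 neighbours lie between -0.69 and 0.34.

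The wild-type arrays taken by hand did not choose the genes, and UB against hand-dissected MM compares the mean levels of the members between wild-type tissues. It does not measure how widely single arrays vary. Of the 16 probe sets, 9 were kept, from 6 of the genes, and 0 passed in limma (0 at an unadjusted p under 0.05), beside 23.9% of the 23851 probe sets tested. For Cox15 only 1460376_a_at was kept, the probe set that overlapped between null and wild-type captures. Differences ran from -0.55 to 0.56 and adjusted p-values from 0.240 to 0.917. Tmem267 was 2632 ± 799 in UB and 3972 ± 1813 in hand-dissected MM, and Cap1 (1417461_at) was 5543 ± 1741 in UB and 4226 ± 1688 in hand-dissected MM (SD, n = 4 and 3). In Trim5 the difference was -0.20 with an SE of 1.08, and it was 0.80 without UB replicate 1 and -1.51 without hand-dissected MM replicate 5. Without UB replicate 1, Rpgrip1 passed, with a difference of 0.87 (adjusted p = 0.0220, limma). Ifi202b was not kept by the filter; without the filter it was lower in UB, by -1.83 (SE 0.34, adjusted p = 0.00511, limma), where 7 of 9 tested macrophage markers were lower too (by gene, 28.5% of 12435 passed in either direction).

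Wild-type captures were not tested against hand-dissected MM for the members, since the captures took part in choosing them. Their values lay on the same side of the null captures in Cap1, Tmem267, Cox15, Rpgrip1 and Ifi202b. The distance between the methods was largest in Zfp945 (1437128_a_at), at 617 ± 325 in the captures and 174 ± 117 in hand-dissected MM, and in Rpgrip1, at 2283 ± 386 in the captures and 954 ± 205 in hand-dissected MM (SD, n = 4 and 3). In Rpgrip1 the null captures lay above both.

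Ranked by the gap to all 11 wild-type arrays, the members stood among other probe sets of the same kind. Tmem267 ranked 3, Rpgrip1 5, Cap1 8 and Cox15 16 of 23387, while Ifi202b ranked 855, Trim5 8114 and Zfp945 16944. In all, 23 probe sets were apart by more than 1, 12 of them higher and 11 lower in the null captures. Besides the members, the widest named gaps were those of Med1, a subunit of the Mediator complex, Rab6a, a Golgi GTPase, Rps9, a ribosomal protein, Hspa13, a chaperone, Paip1 and Prkd3, a protein kinase. Several of these also had disagreeing probe sets. Med1 differed by -5.84 in 1 of its 7 probe sets and by -0.30 in its brightest. Rps9 differed by 3.08 in 1 of its 3 and by -0.21 in its brightest. Rab6a differed by -4.18 and -4.06 in 2 of its 3 and by -0.52 in its brightest.

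The genes whose levels followed a member most closely over the 16 arrays were mostly different for each. Pearson correlations are given as a description, since all points share the same arrays. Those arrays include the captures that chose the members. A gene with a step of its own between null and wild-type captures can therefore correlate highly through that step alone. Cap1 was nearest to Sh3bgrl (0.94), Lancl2 (0.94) and Kdm4c (0.93). Tmem267 was nearest to Pigl (0.94), Lancl2 (0.94) and Kdm4c (0.93), so 2 of its 3 are shared with Cap1. Trim5 was nearest to Zfp606 (0.91), Obsl1 (0.89) and Josd2 (0.88). Ifi202b was nearest to Phldb2 (0.94), the chemokine Ccl6 (0.92) and the interferon-inducible GTPase Iigp1 (0.92), and Ccl6 and Iigp1 differed by -2.99 and -2.83 between the null and wild-type captures. Zfp945 was nearest to another zinc finger gene, Zfp931 (0.90), then to Ppip5k2 (0.90) and Armcx5 (0.89). Cox15 was nearest to C920006O11Rik, Ang and the neurofilament gene Ina (0.92 each), and Ina, one of the neuronal markers, differed by 3.51 between the null and wild-type captures. Rpgrip1 was nearest to Vps52 (0.94), Arhgap39 (0.93) and Galnt2 (0.93).

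Of 15 tested transcripts recalled as varying between inbred strains, 0 passed as higher and 1 as lower in the null captures, Apobec3, a cytidine deaminase that restricts retroviruses. Apobec3 was 49.1 ± 65.9 in the null captures and 311 ± 64.8 in the wild-type captures (SD, n = 5 and 4; difference -2.25, adjusted p = 0.0433, limma), and the null arrays lay below all 11 wild-type arrays by 0.51. The median difference of the list was -0.07, beside -0.10 over all genes.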

How the data were processed

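Per the labels' protocols, each RNA passed 2 rounds of amplification before hybridization to 1 Affymetrix mouse array. The deposited intensity values are linear MAS5 signals, per the submitters' processing notes, which state no MAS5 version or detection calls. The values show that the authors had scaled each array to a mean of 1500.01 after trimming 2% at each tail.

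Of 45101 probe sets, 64 controls were removed, and 34945 of the rest had 1 gene symbol in the platform's annotation. Signals were converted to log2(signal + 36.3), the offset being the 25th percentile of all values. Kept were probe sets above the array median in a number of arrays equal to the smaller group's size or more. Tests used limma 3.58.1 in R 4.3.3 (intensity trend, Benjamini-Hochberg over all kept probe sets, threshold 0.05), each contrast on its own arrays and tested on simulated data. Standard errors are limma's moderated ones. A gap is the log2 distance between the nearest arrays of the null and wild-type sides, negative where they overlap. Genes that are no members were counted through their brightest probe set. Named were the members with every single-symbol probe set, for each the 3 genes most correlated with it over 16 arrays, the 10 named probe sets with the widest gap, the neighbours and listed genes that passed or differed most, and the targeted locus. Neighbours, chromosomes and promoters came from RefSeq on GRCm38.p6; probe coordinates were not used. The 7 genes and the lists were chosen with earlier results of these data known. The labels name replicates as separate samples. Alternatives were other offsets, scalings and filters, array weights, a replicate block and leaving out each array. Python 3.11.15, pandas 2.3.3, numpy 2.4.6 and matplotlib 3.10.9 were used. Precision is limited by the number of arrays per group, since arrays have no read depth.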

Additional observations from a re-analysis of the deposited data

Results flagged for a closer look

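In 48 groups of 4 or 5 arrays of the member probe sets, 4 (8.33%) held an array whose distance to its nearest neighbour took up more of the group's range than Dixon's 95% limit allows, where chance gives about 1 in 20. Trim5 was lowest in UB replicate 1 (signal 22.2, ratio 0.868), the array that also held the null level in Trim34a, in Trim68 and in 1 probe set of Supt16. Zfp945 (1437128_a_at) was highest in null replicate 1 (243.4, ratio 0.93). Rpgrip1 was highest in null replicate 2 in the dim probe set 1431357_a_at (139.6, ratio 0.819) and highest in UB replicate 4 in the dim probe set 1451785_at (57.8, ratio 0.869). Groups of 3 arrays were not examined in this way.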

How the results depend on the processing

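The 7 member differences between null and wild-type captures kept their direction under all alternatives and with any 1 array left out. Dim levels depended on the offset: with the median of all values as offset, Tmem267 differed by -3.07, Trim5 by -2.41, Zfp945 by -1.97, Ifi202b by -1.50 and Cox15 by 2.36, and with the 10th percentile Ifi202b differed by -4.34. Median centring gave 3.10 for Rpgrip1. The number of members apart from all 11 wild-type arrays was 4, and 4 to 5 with 1 array left out, Zfp945 joining without null replicate 1. The count behind the background share was less stable. Against 411 probe sets between null and wild-type captures, 207 passed after median centring (136 higher, 71 lower; 138 higher and 273 lower without it), 256 without the filter and 1654 with array weights; with 1 array left out the count ran from 60 (without wild-type capture replicate 2) to 1866 (without null replicate 1), and it was 85, 73 and 64 without wild-type capture replicates 1, 3 and 4 and 172, 172 and 248 without null replicates 2, 3 and 5. With the replicate number as a block 53 passed; the correlations of same-numbered captures were -0.05 to 0.07, and the numbers were not taken to pair the arrays. Probe sets apart from all 11 wild-type arrays numbered 650 to 1149 with 1 array left out (1149 without null replicate 1, 1108 without null replicate 4), against 631. Between UB and hand-dissected MM, 10132 passed with array weights and 3580 with all 4 groups in 1 fit, against 5701, and 3951 to 7845 with 1 array left out; the 0 members that passed became 1 without the filter (Ifi202b) and 0 to 1 with 1 array left out (Rpgrip1 without UB replicate 1). The causes were not tested. Signals of a few units carry no order.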
